A study of Mus musculus with 6 samples.

Results

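The expression of 9 epithelial keratin genes and of Trp63 was examined in the vomeronasal organ of wild-type and Cnpy1 knockout mice. The 10 genes were taken from a list of epithelial keratins and the basal cell regulator Trp63, out of 35450 genes with a quantified transcript, of which 16679 had enough reads to be tested. They fall into 5 basal genes (Krt5, Krt14, Krt15, Krt17 and Trp63), 3 keratins of simple epithelium (Krt8, Krt18 and Krt19) and 2 suprabasal keratins (Krt4 and Krt13). Krt15 was selected on its measured level, which was higher in the knockout, so its difference between genotypes is given here as a description and carries no test. Poly(A) RNA was sequenced from 6 littermates at postnatal day 60. The 3 wild types (Cnpy1+/+) were set against 3 homozygous knockouts (Cnpy1-/-), and each genotype had 2 males and 1 female. The female was replicate 2 in wild type and replicate 3 in the knockout. Both vomeronasal organs of a mouse made 1 library, so each value describes a whole organ with neurons, supporting cells, glands, vessels and lining epithelium together. In such bulk samples, fewer cells of a type and less RNA per cell cannot be told apart.

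Keratins are the intermediate filament proteins of epithelial cells, and a filament is built from pairs of 1 acidic type I keratin and 1 basic type II keratin. Krt5 (type II) pairs with Krt14 or Krt15 (type I) in the basal layer, Krt8 (type II) pairs with Krt18 or Krt19 (type I) in simple and glandular epithelium, and Krt4 (type II) pairs with Krt13 (type I) in the upper layers of moist stratified epithelium. Trp63 encodes p63, a transcription factor that basal cells of stratified and olfactory epithelia require. In nasal sensory epithelium, Krt5, Krt14 and Trp63 are known as markers of horizontal basal cells, a reserve stem cell population.

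Library totals ranged from 60969508 to 71670766 estimated reads. Levels are given as CPM, reads per gene relative to all reads in tested genes after TMM scaling, and as mean ± SD over 3 mice. The labels were checked on the targeted gene, Cnpy1, which was at 280, 303 and 325 CPM in wild type and at 67.2, 77.6 and 76.3 CPM in the knockout. Its log2 fold change was -2.04 ± 0.08 SE (adjusted p = 1.75e-05 by edgeR). All 9 listed genes of vomeronasal sensory neurons were detected in every library, with Omp at 1147 CPM in wild type, and 2 of them, Gnao1 and Vmn2r1, passed the test and were lower in the knockout. Vmn2r1 had an adjusted p of 0.000612 by edgeR. Gnao1 had a log2 fold change of -0.41 (adjusted p = 0.0143 by edgeR), and its call was lost when any 1 wild type or knockout replicate 1 or 2 was left out (adjusted p 0.0575 to 0.0854 by edgeR), without scaling factors (0.0691), with the males alone (0.146) and on log2 TPM with limma (0.257). The median log2 fold change of these 9 was -0.31, with 3 above 0. Every knockout was under every wild type for 6 (8.95% of all genes) and over every wild type for 1 (7.22%), Gnai2, at a log2 fold change of 0.17. Of the 9, an unadjusted p below 0.05 was found for 7 (10.5%), and DESeq2 called 6 (2.46%). Their summed level was 2780 to 2991 CPM among wild types and 2468 to 2643 CPM among knockouts. Across all genes tested, 127 passed an adjusted p of 0.05 (0.761%), 13 of them higher (0.0779%) and 114 lower (0.683%) in the knockout, and the median log2 fold change was 0.01. The number higher rested on single libraries, with 3 without wild-type replicate 2 and 25 without knockout replicate 2.

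On the genome (GRCm38, GENCODE M21), the type I genes Krt13, Krt15, Krt19, Krt14 and Krt17 lay within 143703 bases on the minus strand of chromosome 11, in that order. Krt15 spanned 100131758 to 100135928, with Krt13 10191 bases to one side and Krt19 4881 bases to the other. Krt5, Krt4, Krt8 and Krt18 lay within 324958 bases of chromosome 15, where Krt8 (101996698 to 102004482, minus strand) was separated by 23697 bases from the type I gene Krt18 (102028180 to 102032027, plus strand). Trp63 stood apart on chromosome 16 (25683763 to 25892102, plus strand). Related keratins share sequence, and the deposited counts divide reads among similar transcripts by estimation, so the overlap was measured. The percent of 31-base words found in no other quantified gene was 96.3 for Krt15, 99.6 for Krt19, 98.9 for Krt4, 99.8 for Krt13 and 100 for Trp63. It was 87.2 for Krt5, 84.2 for Krt17, 88.6 for Krt18, 71.8 for Krt14 and 67.7 for Krt8. Within the coding sequences of the 9 keratins, the most similar pair was Krt14 and Krt17, with 74.0% identical aligned bases and an unbroken shared run of 71 bases. The aligned stretch of Krt15 is shown beside it because it shows how far the gene at issue differs from its basal relatives. Capitals mark the shared run in Krt14 and Krt17, and, in Krt15, the 69 of 91 bases equal to Krt14 (GENCODE M21 transcripts, 5′ to 3′).
Krt14: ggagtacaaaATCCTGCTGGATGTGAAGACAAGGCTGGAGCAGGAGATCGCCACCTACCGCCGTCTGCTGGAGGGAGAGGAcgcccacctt
Krt17: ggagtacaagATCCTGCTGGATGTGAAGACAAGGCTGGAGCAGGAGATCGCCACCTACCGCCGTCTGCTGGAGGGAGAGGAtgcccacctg
Krt15: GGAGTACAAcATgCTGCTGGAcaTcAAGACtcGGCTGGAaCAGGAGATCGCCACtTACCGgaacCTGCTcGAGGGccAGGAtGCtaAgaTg
Reads could be traded between Krt14 and Krt17 over the run, while Krt15 differs from both at close intervals in this stretch. Elsewhere Krt15 and Krt17 share a run of 50 bases, and 2.1% of the 31-base words of Krt15 occur in Krt17. The pseudogene Krt8-ps shares 32.2% of the 31-base words of Krt8, yet was assigned at most 1.1 reads per library, and the sum of the pair was 522 ± 40.3 CPM among wild types and 515 ± 21.1 CPM among knockouts (SD, n = 3 each).

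The simple keratins were the most abundant of the 10 genes. On the length-scaled TPM scale, which allows levels of different genes to be set side by side, wild-type organs held Krt18 at 444 ± 21.6, Krt8 at 388 ± 26.0 and Krt19 at 221 ± 25.9 TPM (SD, n = 3). Next came Krt5 at 61.1 ± 8.87, Krt17 at 39.9 ± 9.39, Krt15 at 24.2 ± 1.43, Krt14 at 20.2 ± 3.03 and Trp63 at 11.7 ± 1.83 TPM. Krt4 (0.759 ± 0.175 TPM) and Krt13 (0.0471 ± 0.0305 TPM) were at trace level. The wild-type ranges of neighbours in this order overlapped for Krt15 and Krt14 and for no other pair. In the knockout the order was the same except that Krt15 (46.6 ± 13.8 TPM) stood before Krt17 (35.2 ± 8.0 TPM). There the ranges of Krt5 and Krt15, of Krt15 and Krt17, and of Krt17 and Krt14 overlapped, as did those of Krt18 and Krt8 and of Krt4 and Krt13.

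**Figure D1:**
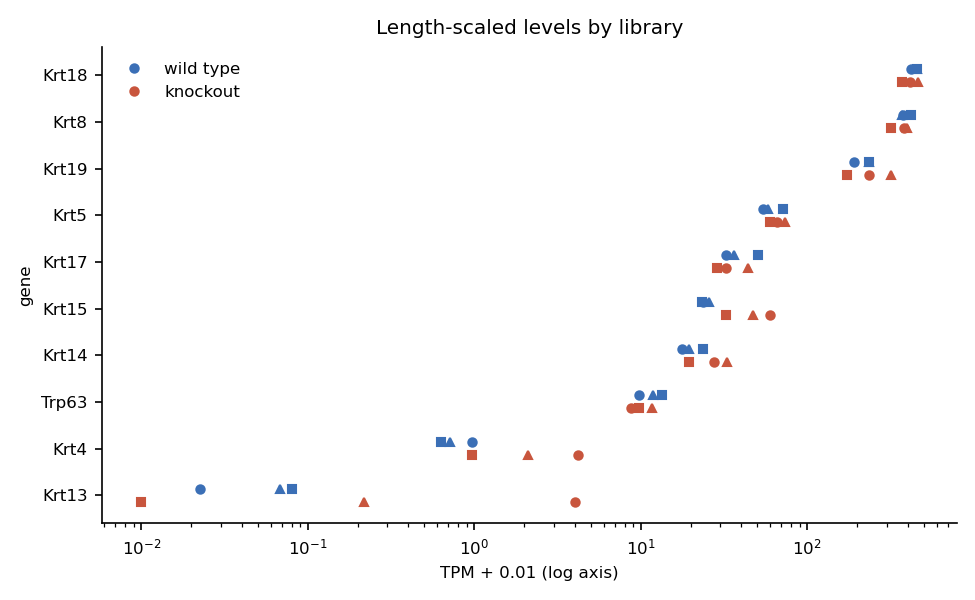
Levels of the 10 genes in TPM (log axis, 0.01 added) in each of the 6 libraries, with circles, squares and triangles for replicates 1, 2 and 3 of wild type (blue) and knockout (red). Krt8, Krt18 and Krt19 lie above 170 TPM in every library, the basal genes between 8 and 74 TPM, and Krt4 and Krt13 at the low end, where their knockout libraries spread most.

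Of the 8 tested genes other than Krt15, 0 passed an adjusted p of 0.05 in edgeR's quasi-likelihood test, against 0.761% of all genes tested (0.0779% higher and 0.683% lower). Krt5, Krt14 and Krt4 had an unadjusted p below 0.05, which 10.5% of all genes had. limma-voom also called 0 of the 8, and DESeq2 called 1. All 3 knockouts lay above all 3 wild types for 2 of these 8 genes, Krt5 and Krt4, against 7.22% of all genes tested. For none of the 8 did all knockouts lie below, which held for 8.95% of all genes. The median log2 fold change was 0.08 over the 8 genes and 0.01 over all genes tested. Krt13 had too few reads to be tested.

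**Figure D2:**
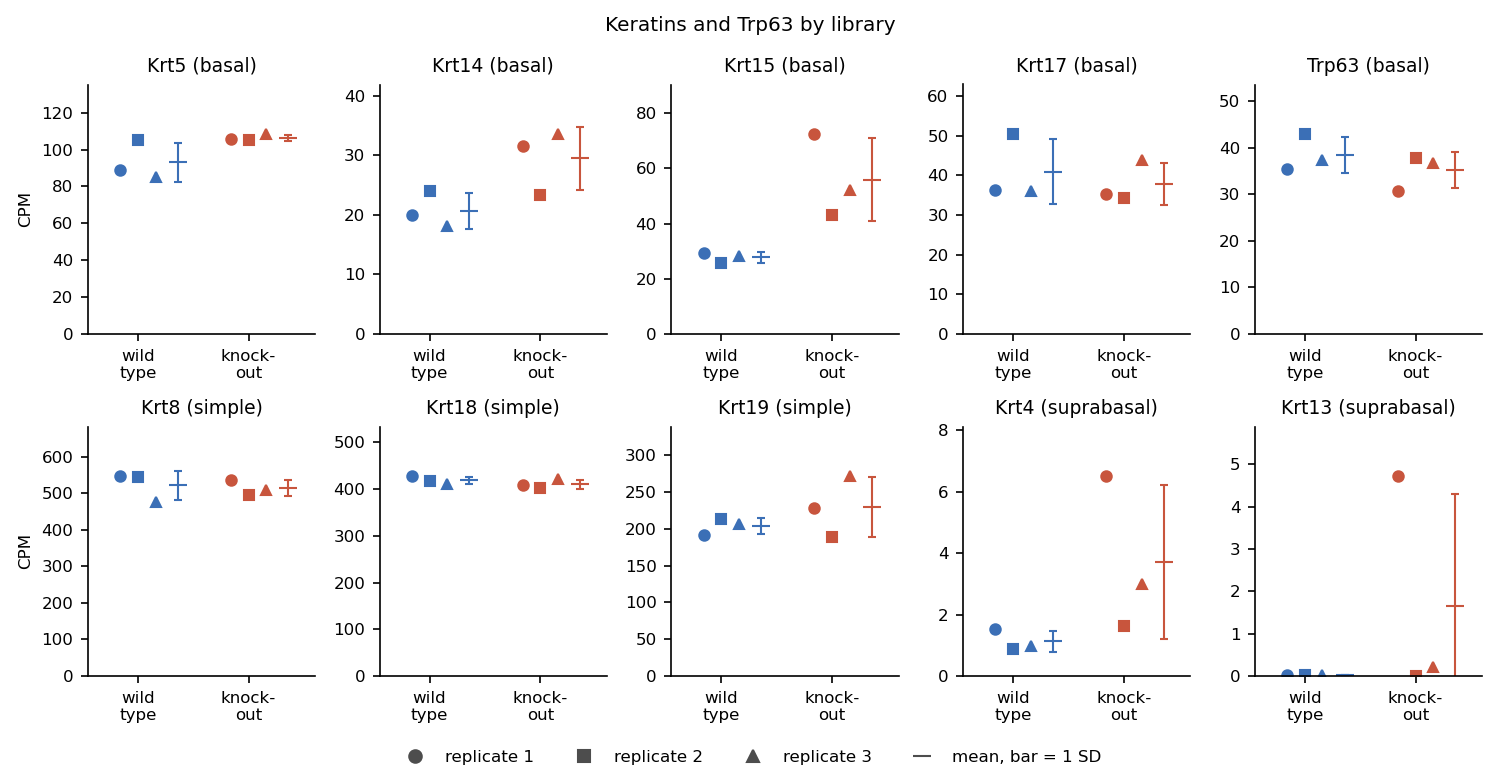
CPM of each gene in the 3 wild-type (blue) and 3 knockout (red) libraries, with symbols for the replicate number and a bar for the mean ± 1 SD (for Krt13 in the knockout, the bar runs below 0 and is cut at the axis). Krt15, Krt5 and Krt4 have every knockout above every wild type, by a margin of less than 1 CPM for Krt5 and Krt4, while the genotypes overlap for Krt8 and Krt18.

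Among the basal genes, Krt5, the type II keratin of basal cells, was at 89.1, 105.0 and 85.1 CPM in wild type and at 105.6, 105.2 and 108.2 CPM in the knockout. The wild-type female reached the level of the knockouts, and the other wild types were lower. The log2 fold change was 0.19 ± 0.08 SE (adjusted p = 0.453 by edgeR), which is a difference in mean of 93.1 ± 10.5 against 106 ± 1.63 CPM (SD, n = 3 each). The type I partner Krt14 was at 19.9, 24.0 and 18.2 CPM in wild type and at 31.5, 23.4 and 33.5 CPM in the knockout. Knockout replicates 1 and 3 were above all wild types, and knockout replicate 2 was inside their range. Its log2 fold change was 0.51 ± 0.15 SE (adjusted p = 0.247 by edgeR). DESeq2, as an alternative, called Krt14 (adjusted p = 0.0151), and it called 2.46% of all genes tested. The gene sharing most 31-base words with Krt14 was Krt16 (17.6%), and the sum of Krt14, Krt16 and Krt17 was 61.6 ± 11.1 CPM among wild types and 67.3 ± 9.86 CPM among knockouts (SD, n = 3 each), with overlapping ranges. Relative to Krt5, Krt14 was at a TPM ratio of 0.327, 0.332 and 0.335 in wild type, a spread of 0.331 ± 0.00432 (SD, n = 3). The ratio in the knockouts was 0.419, 0.329 and 0.445, so that replicate 2 matched the wild types and replicates 1 and 3 were higher.

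Krt15, an alternative type I partner of Krt5 found in basal and progenitor cells of several stratified epithelia, was chosen for its level in the knockout. It was at 29.3, 25.7 and 28.3 CPM in wild type and at 72.3, 42.9 and 52.2 CPM in the knockout, from 1938, 1599 and 2107 reads and 4327, 2507 and 3506 reads. The wild types lay close together, and the knockouts were all higher and spread widely, with replicate 1 highest and replicate 2 lowest. The mean was 27.8 ± 1.85 CPM among wild types and 55.8 ± 15.01 CPM among knockouts (SD, n = 3 each). The log2 fold change was 1.01 with an SE of 0.17. The value was 0.78 without knockout replicate 1 and 1.16 without knockout replicate 2. All Krt15 reads were assigned to Krt15-201, a transcript of 1700 bases in 8 exons, in every library.

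The level of Krt15 beside its relatives can be read as a share of the type I basal keratins. Of the summed TPM of Krt14, Krt15 and Krt17, Krt15 made up 32.0%, 23.8% and 31.5% in wild type and 50.0%, 40.1% and 38.1% in the knockout. Relative to Krt5, the 3 type I genes together were at 1.37, 1.37 and 1.40 in wild type, and at 1.83, 1.36 and 1.69 in the knockout. Without Krt15, the ratio of Krt14 plus Krt17 to Krt5 was 0.978 ± 0.0575 in wild type and 0.924 ± 0.116 in the knockout (SD, n = 3 each). None of these shares and ratios was tested, and those with Krt15 include the gene that was chosen for its difference.

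Krt17, a type I keratin of basal, myoepithelial and injury-responsive cells, was at 36.4, 50.4 and 36.0 CPM in wild type and at 35.3, 34.3 and 43.8 CPM in the knockout. The female was the highest library of each genotype, and the groups overlapped. The log2 fold change was -0.11 ± 0.14 SE (adjusted p = 0.859 by edgeR), and it was 0.06 without wild-type replicate 2. Trp63 was at 35.4, 42.8 and 37.3 CPM in wild type and at 30.7, 37.9 and 36.8 CPM in the knockout. The ranges overlapped, and the knockout with the highest Krt15, replicate 1, had the lowest Trp63. Its log2 fold change was -0.13 ± 0.10 SE (adjusted p = 0.714 by edgeR). Summed over Krt5, Krt14, Krt15 and Krt17, basal keratin expression was 182 ± 19.9 CPM among wild types and 229 ± 20.7 CPM among knockouts (SD, n = 3 each). Without Krt15 the sums were 155 ± 21.6 and 174 ± 11.4 CPM, and their ranges overlapped.

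The reads of Trp63 were also divided by annotated transcript. The gene has an upstream first exon, whose transcripts encode the TA forms of p63 with the amino-terminal transactivation domain, and an internal first exon (chromosome 16, 25801916 to 25802101) whose transcripts encode the delta N forms typical of basal cells. The coding starts are shown because they are what tells the forms apart, with the start codon in capitals (GENCODE M21, 5′ to 3′).
Trp63-201, internal first exon: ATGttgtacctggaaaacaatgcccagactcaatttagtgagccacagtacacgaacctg
Trp63-202, upstream first exon: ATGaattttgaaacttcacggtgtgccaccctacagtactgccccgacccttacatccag
Transcripts with the internal first exon held 99.5% ± 0.392 of Trp63 reads in wild type and 99.3% ± 0.341 in the knockout (SD, n = 3 each), and at least 99.0% in every library. The remainder was 0.472% ± 0.392 and 0.721% ± 0.341. Within the delta N forms, Trp63-201 held 57.1%, 60.8% and 49.9% of Trp63 reads in wild type and 55.9%, 58.7% and 47.0% in the knockout, and Trp63-205 held most of the rest. These transcripts differ in 12 bases, shown in capitals within their surroundings.
Trp63-201: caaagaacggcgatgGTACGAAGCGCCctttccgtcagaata
Trp63-205: caaagaacggcgatgctttccgtcagaata
The shares of the genotypes overlapped for both. By exact permutation of the mean shares (two-sided), Trp63-201 gave p = 0.6 and the internal first exon p = 0.6. Over the 8 transcript shares compared in Krt14, Krt19 and Trp63, every adjusted p was 0.8. With 3 against 3 mice the smallest p possible is 0.1, so a difference in shares could not pass this test.

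**Figure D3:**
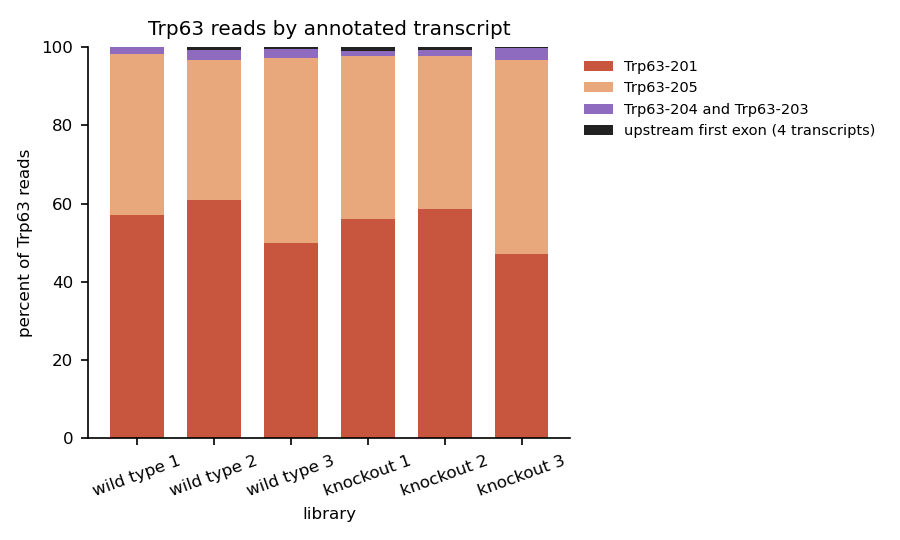
Percent of Trp63 reads assigned to each annotated transcript in the 6 libraries, stacked to 100. Trp63-201 takes between 47.0% and 60.8% and Trp63-205 between 35.9% and 49.8%, while transcripts with the upstream first exon take less than 1% everywhere.

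For Krt14, the full-length Krt14-201 held 85.2%, 86.0% and 71.4% of reads in wild type and 91.7%, 83.4% and 87.6% in the knockout, with wild-type replicate 3 apart from the others (80.9% ± 8.22 against 87.6% ± 4.16, SD, n = 3 each, exact permutation p = 0.4). For Krt19, Krt19-201 held 89.1% ± 1.28 in wild type and 88.4% ± 2.84 in the knockout (exact permutation p = 0.8).

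Of the simple keratins, Krt8 and Krt18 had close mean levels in both genotypes. Krt8 was at 547, 544 and 475 CPM in wild type and at 538, 497 and 511 CPM in the knockout, a log2 fold change of -0.02 ± 0.07 SE (adjusted p = 0.963 by edgeR). Its partner Krt18 was at 427, 417 and 412 CPM in wild type and at 408, 402 and 421 CPM in the knockout, a log2 fold change of -0.03 ± 0.05 SE (adjusted p = 0.916 by edgeR). The ranges of both genes overlapped between genotypes, and the ratio of Krt18 to Krt8 in TPM was 1.15 ± 0.0743 and 1.14 ± 0.0497 (SD, n = 3 each). Krt19, the type I keratin without a tail domain found in ducts and simple epithelium, was at 192, 213 and 206 CPM in wild type and at 228, 189 and 271 CPM in the knockout. Knockout replicates 1 and 3 were above the wild types and replicate 2 just below them, much as for Krt14, whose replicate 2 was inside the wild-type range. Its log2 fold change was 0.17 ± 0.12 SE (adjusted p = 0.695 by edgeR). The 3 simple keratins summed to 1144 ± 44.4 CPM among wild types and 1155 ± 60.1 CPM among knockouts.

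The suprabasal keratins were rare, and most of their reads came from knockout libraries. Krt4 had 101, 55 and 74 reads in wild type and 389, 96 and 201 reads in the knockout, or 1.53, 0.884 and 0.994 CPM against 6.5, 1.64 and 2.99 CPM. Knockout replicate 1 was highest and replicate 3 next, while replicate 2 was just above the wild types. The log2 fold change was 1.71 ± 0.47 SE (adjusted p = 0.231 by edgeR), and 1.03 without knockout replicate 1. Krt13, its type I partner, had 1 read in each wild-type library and 282, 0 and 15 reads in the knockout. The signal was in replicate 1 (4.71 CPM) and to a small extent in replicate 3 (0.223 CPM). In replicate 2 the count of 0 allows a level of up to 0.0514 CPM by counting error (3 reads). Krt13 was left out by the filter on low counts, and a gene carried by 1 library gives no fold change for the genotype.

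Outside the 10 genes, the tables held other keratins, 13 of which were tested, and 0 of these passed the adjusted threshold with edgeR. Krt6a is described on its own. Of the 12 others, an unadjusted p below 0.05 was found for 3 (10.5% of all genes), limma-voom called 0, and DESeq2 called 1, Krt90 (2.46%). Their log2 fold changes were above 0 for 4 and below 0 for 8, with a median of -0.08. Every knockout exceeded every wild type for 0 of the 12 (7.22% of all genes), and every knockout was under every wild type for 3 (8.95%). Krt6a is a type II keratin of injured and stratified epithelium. It had 1.0, 7.6 and 9.0 reads in wild type and 366, 19.0 and 263 reads in the knockout, or 0.0151, 0.129 and 0.121 CPM against 6.12, 0.326 and 3.91 CPM. Here too, knockout replicates 1 and 3 were far above replicate 2. Krt6a passed the filter on low counts only through the knockout, where it was high, and was named after its values were seen, so its fitted log2 fold change of 5.26 (SE 1.06) is given as a description. It shares 9.5% of the 31-base words of Krt5, and the sum of Krt5, Krt6a and Krt6b was 93.2 ± 10.5 CPM among wild types and 110 ± 3.95 CPM among knockouts (SD, n = 3 each). The keratins lower in all knockouts were Krt10, Krt83 and Krt90. Krt90 had a log2 fold change of -0.31 (edgeR adjusted p = 0.140).

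**Figure D4:**
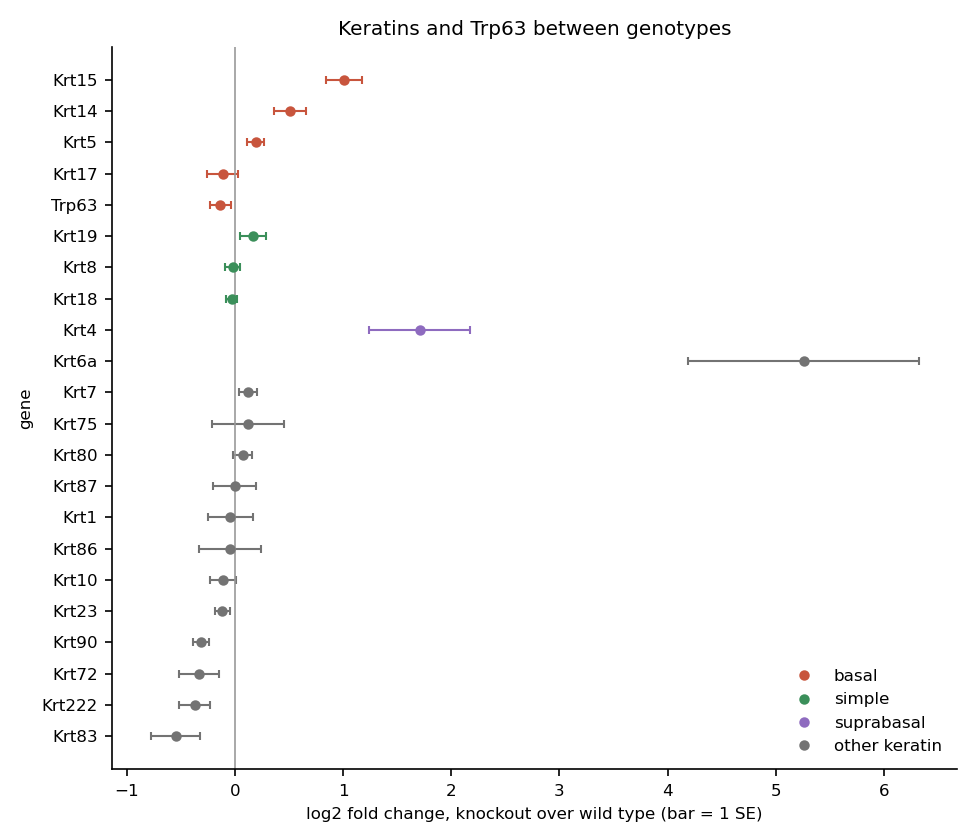
Log2 fold change, knockout over wild type, with 1 SE, for the 9 tested genes and 13 other tested keratins (Krt13 was not tested). Krt6a, Krt4 and Krt15 lie farthest to the right with wide bars for the rare Krt6a and Krt4, Krt14 and Krt5 lie above 0, and Krt8, Krt18, Krt17 and Trp63 lie within 0.2 of 0.

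The order knockout replicate 1, replicate 3, replicate 2 and then every wild type, shown by Krt15 and Krt4, occurred in 269 of the genes tested (1.61%). Some secretory and leukocyte genes had the same order. Muc5ac, a gel-forming mucin of goblet cells, was at 5.26, 1.04 and 9.19 CPM in wild type and at 127, 23.3 and 54.9 CPM in the knockout (log2 fold change 3.71, adjusted p = 0.105 by edgeR). Muc5b, a mucin of submucosal glands and airway secretory cells, was at 40.9, 18.1 and 33.6 CPM against 184, 59.9 and 110 CPM (log2 fold change 1.93, adjusted p = 0.115 by edgeR). Lyz2, a lysozyme of macrophages and neutrophils, was at 140, 124.5 and 108.5 CPM against 252, 178 and 195 CPM (log2 fold change 0.75, adjusted p = 0.0646 by edgeR). All 3 had every knockout above every wild type and replicate 1 highest. They were picked after their values were seen. The summed gland and secretory list had another order, with knockout replicates 1, 2 and 3 at 142450, 176840 and 107110 CPM. The leukocyte sum was at 1252, 1031 and 1193 CPM in these libraries, with replicate 2 under the highest wild type (1078 CPM). Of the whole gland and secretory list, 0 of 11 tested genes passed with edgeR (3 with DESeq2, which called 2.46% of all genes), 8 were above 0 (median 0.25), all knockouts lay above for 3 (7.22% of all genes) and below for 1 (8.95%), the summed level was 100120 to 149990 CPM among wild types and 107110 to 176840 CPM among knockouts, and Scgb1a1 was at or near 0. Of the leukocyte list, 0 of 11 passed with edgeR (1 with DESeq2), 11 were above 0 (median 0.26), all knockouts lay above for 3 (7.22% of all genes), and the sums were 1007 to 1078 CPM and 1031 to 1252 CPM, with Ly6g near 0. The part of mucus-producing and immune cells in the keratin differences was not tested. Leaving out knockout replicates 1 and 3, a set chosen after seeing the data, kept 1 knockout library, replicate 2. The log2 fold change was then 0.62 for Krt15, 0.17 for Krt14, 0.53 for Krt4 and -0.11 for Krt19. Replicate 2 was the lowest knockout for each of these genes, so lower values follow from that choice.

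**Figure D5:**
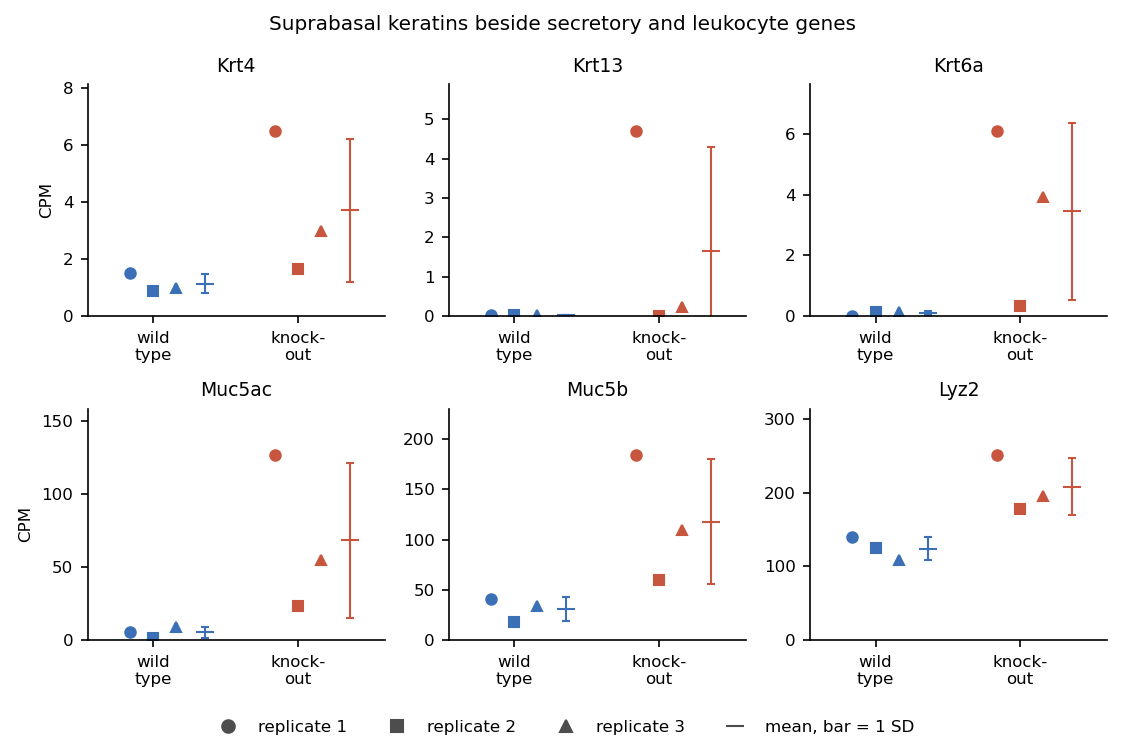
CPM by library of the suprabasal keratins Krt4, Krt13 and Krt6a and of Muc5ac, Muc5b and Lyz2, wild type (blue) and knockout (red), with the mean ± 1 SD (a bar that would run below 0 is cut at the axis). In all 6 panels knockout replicate 1 is highest and replicate 3 is the next highest.

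The other genes of basal cells, keratin anchorage and p63 function were taken from lists. Of 16 horizontal basal cell genes, which encode surface, hemidesmosome and basement membrane proteins, 0 passed, although the log2 fold change was above 0 for 16 (median 0.15, against 0.01 over all genes tested) and all knockouts lay above for 3 (7.22% of all genes). Itgb4, the integrin of hemidesmosomes, was at 63.2, 58.4 and 54.1 CPM in wild type and 79.1, 72.4 and 67.4 CPM in the knockout (log2 fold change 0.32, adjusted p = 0.175 by edgeR). DESeq2 called Itgb4 and no other gene of this list. Its partner Itga6 had a log2 fold change of 0.17, and the abundant Itgb1, Dst and Plec of 0.03, 0.06 and 0.18. The summed level of the list was 1287 to 1481 CPM among wild types and 1460 to 1565 CPM among knockouts, so the ranges overlapped. The neuron genes had a median of -0.31 in the same libraries, and their part in the epithelial values was not tested.

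Desmosomes anchor keratin filaments at the cell border. Of 10 desmosome genes, 0 passed with edgeR, against 0.761% of all genes tested. For 9 the log2 fold change was above 0, and the median was 0.13, against 0.01 over all genes tested. Dsp, Jup and Perp were at 0.13, 0.07 and 0.05. Of 14 regulators of stratified epithelium, several of them known p63 targets, 0 passed and the median was 0.13. Dlx3 and Jag2 had log2 fold changes of -0.16 and -0.03. Of 11 tested partners of keratin filaments, 0 passed and the median was 0.03. Vim, Ppl and Ktn1 were at 0.09, 0.03 and -0.01. Envoplakin (Evpl), which is built into the cornified envelope, was at 0.40 (adjusted p = 0.214 by edgeR). It was the 1 partner of the 11 that was higher in all knockouts, which held for 7.22% of all genes.

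Of 19 genes of stratified, cornifying epithelium, 11 were tested and 0 passed with edgeR. DESeq2 called 1 (2.46% of all genes), Krt6a, which passed the low-count filter only through the knockout. Without Krt6a, the median log2 fold change of the other 10 was 0.14. The most abundant was Sprr1a, a cornified envelope precursor, at 151 ± 13.6 CPM among wild types and 140 ± 29.2 CPM among knockouts (SD, n = 3 each). Calml3 and Krt10 had log2 fold changes of -0.18 and -0.11. The list summed to 156 to 181 CPM among wild types and 138 to 195 CPM among knockouts. Dsg1a had 0 reads in every library, and Krt16, Sprr3, Krtdap and Cnfn were below 0.13 CPM throughout. Of the simple epithelium genes, 0 of 14 tested passed and the median was 0.07, with Epcam, Spint2 and Cldn3 at 0.01, 0.04 and -0.04.

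Markers of further cell types that can hold these keratins were read beside them. Of the globose basal and proliferation genes, 1 of 8 passed with edgeR, against 0.761% of all genes: Top2a, a topoisomerase of dividing cells, rose from 16.4 ± 0.807 to 21.6 ± 0.909 CPM (SD, n = 3 each, log2 fold change 0.40, adjusted p = 0.0421 by edgeR). The call was lost when any 1 library was left out (adjusted p = 0.0877 to 0.195), without scaling factors (0.240), in males only (0.177), without knockout replicates 1 and 3 (0.519) and with limma on log2 TPM (0.968), where the log2 fold change was 0.23. Mki67, another proliferation gene, was at 12.7, 11.7 and 12.9 CPM in wild type and 17.7, 15.7 and 19.7 CPM in the knockout (0.51, adjusted p = 0.0646 by edgeR). DESeq2 called Mki67 as well, while Pcna had a log2 fold change of 0.06. For this list 8 of 8 genes were above 0, all knockouts lay above for 4 (7.22% of all genes), and the sums were 92.5 to 106.5 CPM and 109 to 130 CPM, which do not overlap. Of the 7 myoepithelial genes 0 passed (median -0.04, Acta2, Mylk and Myh11 at -0.04, -0.08 and 0.05). The same count of 0 held for the 9 supporting cell genes (median -0.01), the 9 genes of ciliated cells (median 0.06, Foxj1 at 0.23) and the 5 tested genes of solitary chemosensory cells (median 0.35). The part of dividing cells in the keratin levels was not tested. In the lists without an edgeR call, genes with an unadjusted p below 0.05 (10.5% of all genes tested) numbered 3 of 16 horizontal basal cell genes, 3 of 14 simple epithelium genes, 1 of 10 stratified ones other than Krt6a, 5 of 11 secretory and 4 of 11 leukocyte genes. They numbered 1 each of the desmosome genes, epithelial regulators, filament partners, supporting cell genes and solitary chemosensory genes, and 0 of the myoepithelial and ciliated cell genes. limma-voom called 0 in all of these.

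Sex was examined in 2 ways. In a fit with a genotype by sex interaction, 0 of the 9 tested genes passed, against 0.024% of all genes. None had an unadjusted p below 0.05, and the lowest, for Krt5, was 0.958 after adjustment in edgeR. With 1 female per genotype this comparison has little precision. After the values by library had been seen, it was counted how often the female was the highest library of both genotypes. This held for Krt5, Krt14, Krt17 and Krt19, 4 of the 9 tested genes, and for 12.5% of all genes tested. With genotype kept as a term, the log2 difference of females from males was 0.41 (SE 0.05, edgeR adjusted p = 0.238) for Krt17, 0.31 (SE 0.12) for Krt14, 0.24 (SE 0.10) for Krt19, 0.16 (SE 0.07) for Krt5 and 0.17 (SE 0.09) for Trp63. It was -0.15 (SE 0.18) for Krt15, and 0 of the 9 genes passed, against 0.042% of all genes. An unadjusted p below 0.05 was found for 3 of the 9, Krt14, Krt17 and Krt19, against 5.5% of all genes. The adjusted p of Krt14 and Krt19 was 0.856 by edgeR. This fit was added after the female values were seen, so these counts lend that pattern no support. With 1 female per genotype, a sex and an animal cannot be told apart.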

How the data were processed

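Per the labels' protocols, vomeronasal RNA was poly(A)-selected and made into directional libraries. The authors deposited, per the file headers, a table per library with an estimated count and a TPM for each of 117081 transcripts, with their length and effective length. The submitters' processing notes name Salmon 1.9.0, Trim Galore 0.6.6 and DESeq2 without their role, and the builds mm10 and GRCm38. Salmon divides reads that fit several transcripts among them. The transcript index is not given in the sources used here.

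Transcripts were joined by identifier to GENCODE M21. Of these, 115942 matched, and the 1139 others, with 0.304% of reads, were left out. Counts were summed to 35450 genes and rounded, and 16679 passed filterByExpr. Genotypes were compared with edgeR 4.0.16 (quasi-likelihood F test, TMM scaling, R 4.3.3) with Benjamini-Hochberg adjustment over all genes tested. Genes with an adjusted p-value under 0.05 passed. The SE is the log2 fold change divided by the square root of F. The procedure was tested on simulated data. Biological variation between replicates was 12.8% (common coefficient). Each library is 1 mouse, so p-values measure the spread between these mice. DESeq2 1.42.0, limma 3.58.1 and other scalings, filters and sample sets were alternatives. Transcript shares were compared for transcripts with a mean share of at least 10%, in genes with 100 or more reads in every library, and 31-base words and alignments were computed from GENCODE M21 transcripts. Figures and shares used Python 3.11.15 with pandas 2.3.3, scipy 1.17.1 and matplotlib 3.10.9.

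The genes and lists were chosen with earlier results of these data known. The rule for naming genes covered the 10 genes, other keratins that passed, and, in each list, genes that passed and the 3 most abundant ones, the 5 genes most like Krt15 or Krt5, and Cnpy1. A gene that the rule covers is not reported here. Krt6a, Krt83, Krt90, Muc5ac, Muc5b, Lyz2, Itgb4, Itga6, Evpl, Mki67, the keratin-like copies and genes near 0 were named outside it, after values were seen. So was Krt10 where it is named among the keratins lower in all knockouts.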

Additional observations from a re-analysis of the deposited data

How the results depend on the processing

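Across all genes, 127 passed, and under 19 alternatives the count moved beyond 1.5 times with DESeq2 (411), limma on log2 TPM (80), males only (76) and without knockout replicates 1 and 3 (67, added after seeing the data). It ranged from 69 to 96 when 1 library was left out, and moved beyond 1.5 times when the one left out was any wild type (78, 69 and 82 for replicates 1 to 3) or knockout 1 (76). The 13 genes higher in the knockout became 3 to 25 when 1 library was left out, 33 with the replicate block and 93 with DESeq2. Of the 8 tested genes other than Krt15, 0 passed under 18 of the 19 alternatives, and 1, Krt14, with DESeq2. Log2 fold changes ranged from 0.62 to 1.16 for Krt15, 0.17 to 0.65 for Krt14, 0.12 to 0.29 for Krt5, 0.53 to 2.06 for Krt4, -0.21 to -0.03 for Trp63, -0.10 to -0.01 for Krt18 and -0.09 to 0.02 for Krt8. The lowest values of Krt15, Krt14 and Krt4 came from the fit without knockout replicates 1 and 3, which kept 1 knockout library. Among the other alternatives the lowest were 0.78 for Krt15, 0.37 for Krt14 and 1.03 for Krt4. The sign turned in 4 alternatives for Krt8, whose values stayed near 0. It turned in 1 alternative each for Krt17 (without wild-type replicate 2) and Krt19 (without knockout replicates 1 and 3). The replicate numbers were not used as pairs in the main fit. The deviations of same-numbered libraries correlated at 0.155, -0.0942 and 0.23, too few values to decide whether these libraries are paired. With the replicate number as a block, 154 genes passed and 0 of the 8, and the call of Top2a was lost (adjusted p = 0.103 by edgeR). Muc5b (adjusted p = 0.00147 by edgeR), Muc5ac (0.0259) and Lyz2 (0.0195), picked after their values were seen, passed in that fit. The interaction with sex gave 0 of the tested genes under 3 alternatives. Depth limits Krt13, with at most 15 reads in 5 of 6 libraries.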

Other observations

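The genes whose pattern over the 6 libraries was most like that of Krt15 were sought among 14767 genes averaging 1 CPM or more, by Pearson's r of log2 CPM. They were Mycl (r = 0.996), Pitx1 (0.984), Ankrd27 (0.984), Pik3r5 (0.982) and Brd3 (0.982). The transcription factor gene Mycl was at 22.4, 21.7 and 22.0 CPM in wild type and at 27.8, 24.9 and 26.1 CPM in the knockout, so its order over the libraries was that of Krt15 and its log2 fold change (0.26) smaller. Pitx1, a homeobox gene, was at 9.26, 9.13 and 9.27 CPM in wild type and at 14.1, 11.8 and 11.8 CPM in the knockout. For Krt5 the closest were Hexim1 (0.998), Nek6 (0.994), Fcrls (0.994), Espl1 (0.984) and Ugt1a6a (0.982). These are the extremes of a search over only 6 libraries that differ in genotype, and they are given as a description.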
